A study of Arabidopsis thaliana with 30 samples.

Results

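The genes described here are 10 core genes of the circadian clock of Arabidopsis thaliana, taken by locus identifier from the 68575 identifiers of the deposited count table. They are the morning MYB-like factors CCA1 (AT2G46830), LHY (AT1G01060), RVE1 (AT5G17300) and RVE8 (AT3G09600), the pseudo-response regulators PRR9 (AT2G46790), PRR7 (AT5G02810), PRR5 (AT5G24470) and TOC1 (AT5G61380), and the later-phased genes GI (AT1G22770) and ELF4 (AT2G40080). All 10 passed the filter on low counts and were tested among 19429 genes.

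The plant clock is a ring of transcription factors that are expressed one after another over the day and mostly repress each other. CCA1 and LHY peak around dawn and repress evening genes such as TOC1 and GI, PRR9, PRR7 and PRR5 follow through the day and repress CCA1 and LHY, and TOC1 represses CCA1 and LHY in the evening. RVE8 activates evening genes, ELF4 acts with ELF3 and LUX in a night-time repressor complex, and GI stabilises the F-box photoreceptor ZTL. These transcripts cycle over each day, so the level seen in a tissue depends on the hour of harvest.

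Libraries came from whole seedlings grown for 14 days with 10 h of light and 14 h of darkness per day. The 8 groups were Zeocin Δlinda (n = 4), Zeocin Col-0 (n = 3), mock Δlinda (n = 3), mock Col-0 (n = 4), UV-C Δlinda (n = 4), UV-C Col-0 (n = 4), normal light Δlinda (n = 4) and normal light Col-0 (n = 4). Col-0 is the wild type, and Δlinda is a mutant of the long noncoding RNA gene LINDA, whose number of independent lines the sources used here leave unstated. Zeocin, a DNA-breaking drug of the bleomycin family, was given at 80 µg/ml in liquid MS medium, and mock seedlings were held in that medium. UV-C, short-wave ultraviolet light that mainly joins neighbouring pyrimidines, was given at 2 kJ, with seedlings left in normal light as its control. Seedlings spent 3 h in the medium, with or without the drug, or were taken 3 h after UV-C, while the labels give no harvest time for normal light. The labels name no separate plants or days for the replicates, so p-values measure the spread between these samples only. The library mock Col-0 replicate 1 carries delta_linda in its genotype tag and Col-0 in its title, and its title decided its group. The treatment protocol puts the word mock on the medium with Zeocin, and the groups follow the titles. The series design text gives 4 samples per genotype and treatment, against 3 analysed here for mock Δlinda and for Zeocin Col-0.

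The restored library totals were 13160087 to 15694422 estimated counts in 29 libraries and 8118903 in normal light Δlinda replicate 1. The noncoding gene AT3G00800, taken as the LINDA locus from general knowledge of the study, was at 9.43 to 26.7 CPM (the gene's count per 1000000 counts of the library) in Zeocin Δlinda and 31.7 to 48.2 CPM in Zeocin Col-0. It was at 1.25 to 2.30 CPM in UV-C Δlinda and 7.12 to 14.9 CPM in UV-C Col-0, and below 1 CPM in all mock and normal light libraries. The sources used here do not say which part of it is deleted. Against the label whole seedling, the root endodermis gene CASP1 and the root aquaporin gene TIP2;3 were at 13.9 to 26.8 and 6.50 to 26.1 CPM in Zeocin and mock libraries, but at 0 in all UV-C Col-0 libraries and at most 0.337 CPM in the other UV-C and normal light libraries. Chloroplast-encoded genes took 1.58% to 3.31% of counts in UV-C libraries and 0.503% to 1.57% in normal light libraries. The ribosomal and structural RNA genes AT3G41768 and AT3G06365 together took 5.95% to 12.4% in UV-C libraries and 0.680% to 1.62% in normal light libraries.

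The levels of the 10 genes are given as TMM-normalised CPM, which compares libraries for 1 gene and not genes with each other, since it does not correct for transcript length. In bulk seedlings, fewer cells of a type and less RNA per cell cannot be told apart. LHY, CCA1, RVE8 and TOC1 had their lowest means in the 2 normal light groups, whereas PRR9, PRR7 and GI had their highest means there. LHY spanned the widest range of the 10, with a mean of 66.2 CPM in UV-C Col-0 and 5.90 CPM in normal light Col-0, a ratio of 11.2. RVE1 followed with a ratio of 8.41 between its highest mean, 34.1 CPM in mock Col-0, and its lowest, 4.05 CPM in UV-C Δlinda. GI had a ratio of 3.91, and the 7 others had ratios of 1.68 to 2.78.

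**Figure D1:**
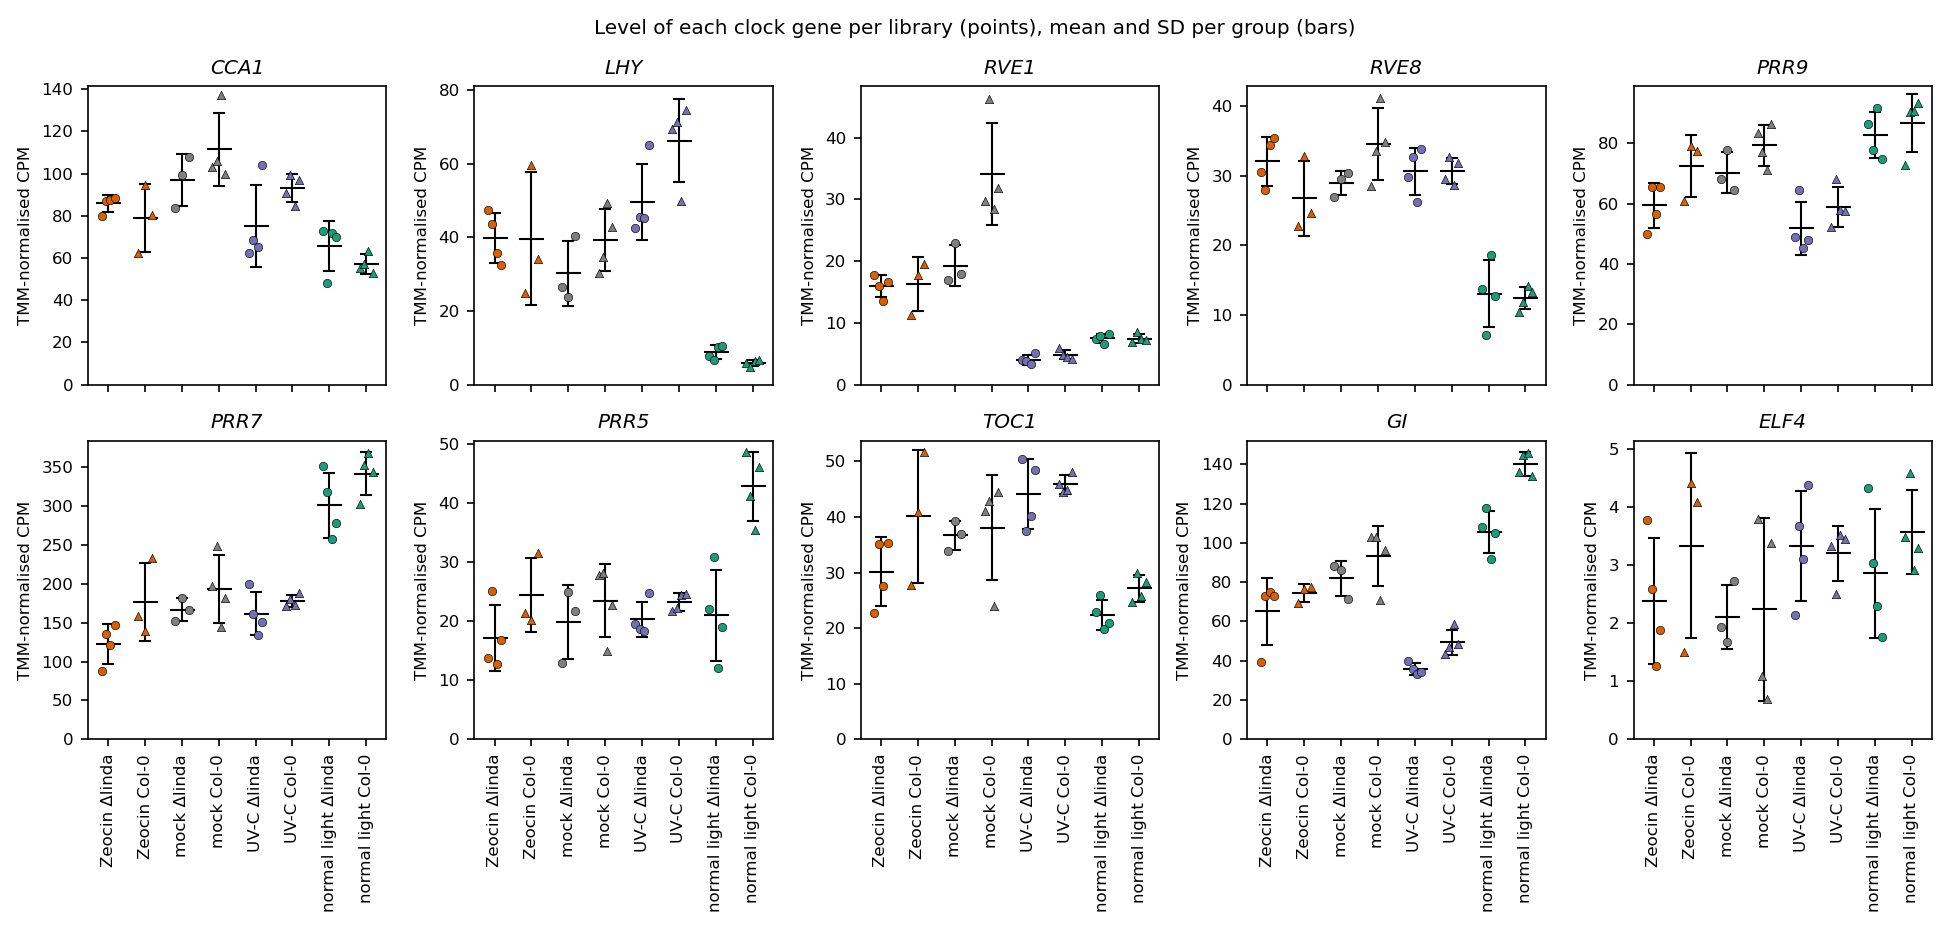
TMM-normalised CPM of each clock gene in each library (points, circles for Δlinda and triangles for Col-0), with the group mean and SD as bars, over the 8 groups. LHY and RVE8 are low in both normal light groups, GI is low in both UV-C groups, and RVE1 is highest in mock Col-0.

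Ordered by mean level, neighbouring groups overlapped in most places. For LHY the only gap between neighbours lay between mock Δlinda, at 30.2 CPM, and normal light Δlinda, at 8.79 CPM. For RVE8 the only gap lay between Zeocin Col-0, at 26.8 CPM, and normal light Δlinda, at 13.1 CPM. PRR7 had its only gap between mock Col-0, at 193 CPM, and normal light Δlinda, at 301 CPM. RVE1 fell into 4 levels, mock Col-0 alone, then mock Δlinda with both Zeocin groups, then both normal light groups, then both UV-C groups. In GI the gaps separated UV-C Δlinda from UV-C Col-0 at the low end and normal light Δlinda from normal light Col-0 at the high end. PRR5 had a single gap, between Zeocin Col-0 at 24.4 CPM and normal light Col-0 at 42.9 CPM. Neighbours overlapped everywhere in the order of CCA1, PRR9, TOC1 and ELF4.

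To show the regulatory sequence beside these levels, the 250 bases before the annotated start of each gene were read from RefSeq TAIR10.1 by locus identifier (no build is stated for the counts). None of the 10 windows overlaps another annotated gene. Motifs were searched on both strands: the evening element AAAATATCT, the CCA1 binding site AAAAATCT, the G-box CACGTG, which is its own reverse complement, and the LUX site as GATACG and GATTCG. The windows of LHY (chr1:37872-38121, minus strand), CCA1 (chr2:19245341-19245590, plus strand), PRR9 (chr2:19232357-19232606, plus strand), PRR5 (chr5:8358547-8358796, minus strand) and TOC1 (chr5:24674713-24674962, plus strand) are shown because they hold the morning and evening motifs of the loop, with matches in capitals, 5′ to 3′ on the gene's strand.
LHY: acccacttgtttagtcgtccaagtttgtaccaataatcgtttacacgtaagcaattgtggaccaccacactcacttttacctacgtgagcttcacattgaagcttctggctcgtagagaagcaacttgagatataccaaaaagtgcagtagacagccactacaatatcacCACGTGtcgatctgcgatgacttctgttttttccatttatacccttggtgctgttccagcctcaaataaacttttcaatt
CCA1: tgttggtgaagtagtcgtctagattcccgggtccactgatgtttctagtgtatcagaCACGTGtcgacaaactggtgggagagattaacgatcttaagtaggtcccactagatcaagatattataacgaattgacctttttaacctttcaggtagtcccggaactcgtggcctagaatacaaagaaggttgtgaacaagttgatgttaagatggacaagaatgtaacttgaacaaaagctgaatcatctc
PRR9: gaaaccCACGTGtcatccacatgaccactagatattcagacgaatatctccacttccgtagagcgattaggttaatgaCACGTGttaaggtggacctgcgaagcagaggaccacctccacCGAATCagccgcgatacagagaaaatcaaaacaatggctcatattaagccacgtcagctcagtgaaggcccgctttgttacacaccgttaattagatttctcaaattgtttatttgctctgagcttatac
PRR5: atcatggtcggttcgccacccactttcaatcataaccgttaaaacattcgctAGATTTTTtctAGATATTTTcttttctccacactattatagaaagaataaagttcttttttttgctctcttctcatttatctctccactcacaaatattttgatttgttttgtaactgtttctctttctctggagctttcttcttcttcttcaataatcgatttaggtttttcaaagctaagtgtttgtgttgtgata
TOC1: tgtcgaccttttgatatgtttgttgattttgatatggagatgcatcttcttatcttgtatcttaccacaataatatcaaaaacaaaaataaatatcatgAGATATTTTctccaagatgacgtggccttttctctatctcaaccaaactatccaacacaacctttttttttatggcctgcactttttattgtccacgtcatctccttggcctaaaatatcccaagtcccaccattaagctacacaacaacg
The G-box stood in 5 of the 10 windows, those of CCA1, LHY, RVE1, PRR9 and PRR7, against 6.49% of 27443 promoters of protein-coding genes, and PRR9 held it at 2 positions. The evening element stood in the windows of PRR5 and TOC1, against 2.36% of all promoters. PRR5 also held the CCA1 binding site, found in 6.69% of promoters, 3 bases before the evening element. ELF4 held GATACG (4.59% of promoters) and PRR9 held GATTCG (7.88%), while the windows of GI and RVE8 matched none of the 5. A match is a run of letters in this window and does not show binding.

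**Figure D2:**
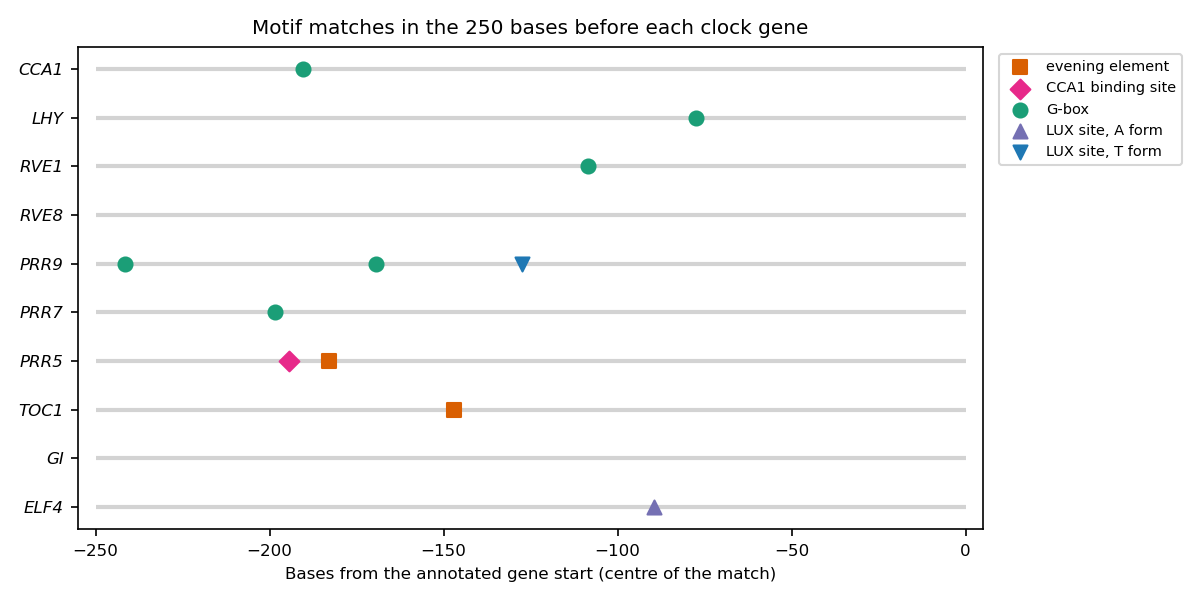
Positions of motif matches in the 250 bases before each clock gene, in bases from the annotated start (horizontal axis), 1 line per gene, with a symbol per motif. The G-box appears in 5 genes and the evening element in PRR5 and TOC1.

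UV-C was set against normal light to ask which transcripts differ at 3 h after irradiation. In Δlinda, 7 of the 10 clock genes passed the threshold, LHY, RVE8 and TOC1 higher and GI, PRR7, RVE1 and PRR9 lower. In Col-0, 9 of 10 passed, LHY, RVE8, TOC1 and CCA1 higher and GI, PRR7, PRR5, RVE1 and PRR9 lower. A gene passed at an adjusted p under 0.05 in edgeR's quasi-likelihood test, adjusted over all genes tested by the Benjamini-Hochberg method. Of all genes tested, 69.9% passed in Δlinda (35.9% higher, 34.1% lower) and 70.3% in Col-0 (35.6% higher, 34.7% lower), so the share among the clock genes is close to the background in Δlinda and above it by 2 genes in Col-0. Groups did not overlap for 7 clock genes in Δlinda and 9 in Col-0, as for 59.7% and 66.8% of all genes tested. The median absolute log2 fold of the 10 genes was 0.89 in Δlinda and 0.82 in Col-0, against 0.78 and 0.80 over all genes tested.

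Without a harvest time for normal light, a change after UV-C and a change with the hour of the day cannot be told apart in these folds. Several tissue markers also moved with the contrast. The summed level of 3 leaf mesophyll genes (RBCS1A, LHCB4.2 and GLK2) was 14473 to 21838 CPM in UV-C Δlinda and 24889 to 34421 CPM in normal light Δlinda, and 14346 to 15980.2 CPM in UV-C Col-0 and 25472 to 29224 CPM in normal light Col-0. Most of that sum came from RBCS1A, and both of its other genes were also lower after UV-C. LHCB4.2 was at 803 to 1371 CPM in UV-C Δlinda and 2729.6 to 4653 CPM in normal light Δlinda, and at 856 to 1118 CPM in UV-C Col-0 and 4348 to 5131 CPM in normal light Col-0. GLK2 was at 40.3 to 50.5 CPM in UV-C Δlinda and 239 to 271 CPM in normal light Δlinda, and at 36.9 to 51.9 CPM in UV-C Col-0 and 261 to 280.0 CPM in normal light Col-0. The summed level of 2 stomatal lineage genes (FAMA and TMM) was 12.2 to 14.7 CPM in UV-C Δlinda and 39.0 to 45.2 CPM in normal light Δlinda, and 12.2 to 15.7 CPM in UV-C Col-0 and 37.8 to 41.3 CPM in normal light Col-0. The summed level of 2 phloem genes (SUC2 and SEOR1) was 147 to 187 CPM in UV-C Δlinda and 191 to 220.4 CPM in normal light Δlinda, and 169.7 to 204 CPM in UV-C Col-0 and 204 to 270.4 CPM in normal light Col-0. Of these, SUC2 was lower after UV-C in both genotypes, while SEOR1 overlapped in both. SEOR1 was at 42.5 to 59.9 CPM in UV-C Δlinda and 40.5 to 50.7 CPM in normal light Δlinda. In Col-0 SEOR1 was at 42.7 to 52.3 CPM after UV-C and 48.5 to 53.4 CPM in normal light. The summed level of 4 root genes (CASP1, SCR, TIP2;3 and COBL9, the last with unclear decimal marks), nearly all of it from SCR, was 12.6 to 18.2 CPM in UV-C Δlinda and 33.4 to 37.8 CPM in normal light Δlinda, and 17.4 to 22.8 CPM in UV-C Col-0 and 30.2 to 39.2 CPM in normal light Col-0. CASP1, TIP2;3 and COBL9 were at most 0.606 CPM in these libraries. The sum here is thus the level of SCR and cannot be read as a level of root tissue. The part of these markers in the clock gene folds was not tested.

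Among the dawn genes, LHY had 42.5, 45.4, 45.3 and 65.0 CPM in UV-C Δlinda, against 7.70, 6.65, 10.3 and 10.5 CPM in normal light Δlinda. In Col-0, LHY had 69.3, 71.2, 49.8 and 74.6 CPM after UV-C, against 5.80, 4.68, 6.35 and 6.76 CPM in normal light. Every UV-C library lay above every normal light library of its genotype, and LHY rose 5.61-fold in Δlinda (log2 fold 2.49 ± 0.24, SE, edgeR adjusted p = 5.1e-10) and 11.2-fold in Col-0 (3.48 ± 0.25, adjusted p = 1.1e-12). CCA1, which binds the same evening element as LHY, had 62.5, 68.7, 65.3 and 104 CPM in UV-C Δlinda, against 72.9, 48.3, 71.9 and 69.8 CPM in normal light Δlinda. These overlap, and the log2 fold of 0.19 ± 0.15 did not pass (edgeR adjusted p = 0.25). In Col-0, CCA1 had 90.9, 99.5, 84.6 and 96.8 CPM after UV-C, against 55.1, 57.2, 63.4 and 52.9 CPM in normal light. Here the groups did not overlap, and CCA1 rose by a log2 fold of 0.70 ± 0.15 (edgeR adjusted p = 0.00012).

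RVE8, an activator of evening genes, had 29.8, 32.7, 26.3 and 33.8 CPM in UV-C Δlinda, against 13.8, 7.07, 18.7 and 12.8 CPM in normal light Δlinda. In Col-0 it had 29.6, 32.7, 28.7 and 31.8 CPM after UV-C, against 10.5, 11.9, 14.2 and 13.3 CPM in normal light. RVE8 rose with no overlap in both genotypes, 2.36-fold in Δlinda (edgeR adjusted p = 3.8e-07) and 2.45-fold in Col-0 (adjusted p = 1.6e-07). RVE1, a relative of CCA1 that links the clock to auxin, moved the other way. It had 4.01, 3.76, 3.30 and 5.16 CPM in UV-C Δlinda, against 7.37, 7.83, 6.58 and 8.19 CPM in normal light Δlinda, and 5.96, 4.81, 4.47 and 4.2 CPM in UV-C Col-0, against 6.86, 8.46, 7.32 and 7.20 CPM in normal light Col-0. RVE1 thus fell in both genotypes without overlap, by log2 folds of -0.89 ± 0.20 in Δlinda (edgeR adjusted p = 0.0002) and -0.62 ± 0.19 in Col-0 (adjusted p = 0.0053).

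Of the pseudo-response regulators, PRR9 and PRR7 were lower after UV-C in both genotypes and TOC1 was higher. PRR7 had 200.0, 161, 134 and 151 CPM in UV-C Δlinda, against 351, 318, 257 and 278 CPM in normal light Δlinda, and 171, 180.4, 172 and 188 CPM in UV-C Col-0, against 302, 352, 368 and 344 CPM in normal light Col-0. The groups did not overlap, and PRR7 fell by log2 folds of -0.90 ± 0.16 in Δlinda (edgeR adjusted p = 1.9e-05) and -0.94 ± 0.16 in Col-0 (adjusted p = 9e-06). PRR9, for which 24 of 30 entries needed a restored decimal mark, had 49.1, 64.7, 45.3 and 48.1 CPM in UV-C Δlinda, against 86.3, 77.9, 91.7 and 75.0 CPM in normal light Δlinda. In Col-0 it had 52.3, 68.2, 57.8 and 57.6 CPM after UV-C, against 72.7, 90.3, 90.9 and 93.5 CPM in normal light. PRR9 fell in both genotypes without overlap, by log2 folds of -0.67 ± 0.12 in Δlinda (edgeR adjusted p = 1.7e-05) and -0.56 ± 0.12 in Col-0 (adjusted p = 0.00019).

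PRR5, the regulator whose window holds both the CCA1 binding site and the evening element, had 19.5, 18.7, 18.3 and 24.7 CPM in UV-C Δlinda, against 22.0, 30.8, 12.1 and 19.1 CPM in normal light Δlinda. The normal light Δlinda libraries spread across the whole UV-C range, and the log2 fold of -0.05 ± 0.25 did not pass (edgeR adjusted p = 0.88). In Col-0 PRR5 had 21.7, 22.3, 24.5 and 24.6 CPM after UV-C, against 48.7, 41.2, 35.4 and 46.1 CPM in normal light, and fell by a log2 fold of -0.88 ± 0.24 without overlap (edgeR adjusted p = 0.002). TOC1, the evening repressor of CCA1 and LHY, had 50.5, 37.4, 40.2 and 48.4 CPM in UV-C Δlinda, against 22.9, 26.0, 19.8 and 20.9 CPM in normal light Δlinda. In Col-0 TOC1 had 46.0, 44.5, 44.8 and 48.1 CPM after UV-C, against 24.7, 29.9, 25.7 and 28.3 CPM in normal light. TOC1 rose without overlap in both, 1.97-fold in Δlinda (edgeR adjusted p = 1.2e-05) and 1.69-fold in Col-0 (adjusted p = 0.00028).

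GI, which acts with ZTL and in flowering control, showed the deepest fall of the 10 genes. It had 40.1, 35.8, 33.4 and 34.5 CPM in UV-C Δlinda, against 108, 118, 92.0 and 105 CPM in normal light Δlinda, and 43.6, 47.1, 58.5 and 48.3 CPM in UV-C Col-0, against 136, 145, 146 and 134 CPM in normal light Col-0. The highest UV-C library of each genotype stayed far below its lowest normal light library, and GI fell by log2 folds of -1.55 ± 0.15 in Δlinda (edgeR adjusted p = 1.9e-10) and -1.51 ± 0.15 in Col-0 (adjusted p = 2.8e-10). ELF4, the small protein of the evening complex, was low throughout, at 2.14 to 4.37 CPM in UV-C Δlinda and 1.76 to 4.33 CPM in normal light Δlinda, and at 2.50 to 3.52 CPM in UV-C Col-0 and 2.91 to 4.58 CPM in normal light Col-0. Its groups overlapped, and its 95% intervals of the log2 fold ran from -0.59 to 1.11 in Δlinda and from -0.98 to 0.68 in Col-0.

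**Figure D3:**
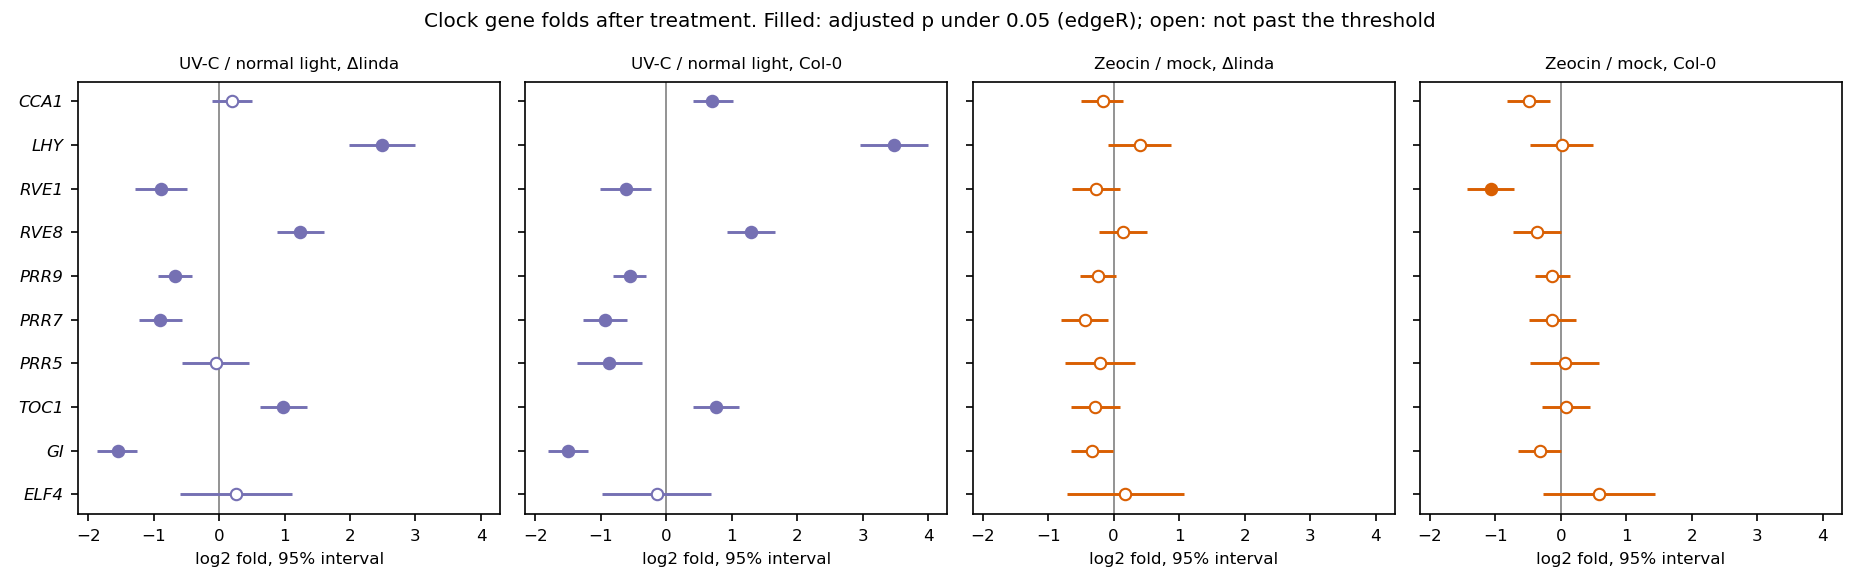
Log2 folds of the 10 clock genes with 95% intervals (edgeR) for UV-C over normal light and Zeocin over mock, in Δlinda and in Col-0, filled where the adjusted p was under 0.05. UV-C panels show LHY at 2.49 and 3.48 and GI at -1.55 and -1.51, while in the Zeocin panels only RVE1 in Col-0 is filled.

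Zeocin and mock seedlings had the same 3 h in liquid medium, and 1 clock gene passed in 1 genotype. None of the 10 passed in Δlinda and 1 of 10, RVE1, passed in Col-0, against 2.91% and 5.43% of all genes tested (in Col-0 4.17% higher and 1.26% lower). Groups did not overlap for 1 clock gene in Δlinda (PRR7) and 2 in Col-0 (RVE1 and CCA1), as for 12.5% and 14.0% of all genes tested. At an unadjusted p of 0.05, 2 genes in Δlinda (PRR7 and GI) and 3 in Col-0 (RVE1, CCA1 and GI) passed in edgeR, as did 12.1% and 16.2% of all genes tested. DESeq2 called 0 of the 10 in Δlinda, and CCA1 and RVE1 in Col-0, while the shares above are those of edgeR. The median log2 fold of the 10 genes was -0.23 in Δlinda and -0.13 in Col-0, beside medians of 0.00 and -0.00 over all genes tested.

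RVE1 had 17.8, 15.9, 13.5 and 16.7 CPM in Zeocin Δlinda, against 16.9, 23.0 and 17.9 CPM in mock Δlinda. In Col-0 it had 11.3, 17.8 and 19.6 CPM after Zeocin, against 29.8, 46.2, 28.5 and 31.9 CPM in mock. All Zeocin Col-0 libraries lay below all mock Col-0 libraries, and RVE1 fell 2.10-fold there (log2 fold -1.07 ± 0.18, edgeR adjusted p = 0.0001). In Δlinda the log2 fold was -0.27 ± 0.18 (adjusted p = 0.59), and the difference between the genotypes did not pass when tested itself (interaction 0.80 ± 0.25, edgeR adjusted p = 0.92). The root marker sum was 62.4 to 83.0 CPM in Zeocin Δlinda and 84.5 to 111 CPM in mock Δlinda, and 71.3 to 79.4 CPM in Zeocin Col-0 and 80.0 to 109 CPM in mock Col-0. Of its genes, SCR did not overlap in either genotype. SCR was at 34.4 to 42.8 CPM in Zeocin Δlinda and 45.7 to 50.5 CPM in mock Δlinda. In Col-0 SCR was at 40.3 to 46.3 CPM after Zeocin and 47.7 to 57.7 CPM in mock. CASP1 and TIP2;3 overlapped between Zeocin and mock in both genotypes, and COBL9 overlapped in Col-0 only. The phloem gene SEOR1 was higher after Zeocin, at 46.0 to 52.6 CPM in Zeocin Δlinda and 30.3 to 38.8 CPM in mock Δlinda, and at 53.5 to 74.3 CPM in Zeocin Col-0 and 31.7 to 39.3 CPM in mock Col-0. The other phloem gene, SUC2, overlapped in both genotypes. SUC2 was at 83.7 to 108 CPM in Zeocin Δlinda and 77.4 to 99.3 CPM in mock Δlinda. In Col-0 SUC2 was at 98.4 to 143 CPM after Zeocin and 94.4 to 121 CPM in mock. The phloem sum was 132 to 157 CPM in Zeocin Δlinda and 116 to 129.6 CPM in mock Δlinda, and 156 to 203 CPM in Zeocin Col-0 and 127 to 160.3 CPM in mock Col-0. The leaf mesophyll and stomatal sums overlapped between Zeocin and mock in both genotypes. Of the stomatal genes, TMM overlapped in both genotypes and FAMA in Δlinda only. In Col-0 FAMA was at 8.48 to 11.0 CPM after Zeocin and 12.2 to 12.7 CPM in mock. The part of these markers in the RVE1 fold was not tested.

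CCA1 had 80.1, 87.2, 87.6 and 88.5 CPM in Zeocin Δlinda, against 83.9, 99.1 and 108 CPM in mock Δlinda, and 62.4, 94.4 and 80.4 CPM in Zeocin Col-0, against 103, 106, 137 and 99.6 CPM in mock Col-0. The Col-0 groups did not overlap, yet the log2 fold of -0.49 ± 0.16 missed the threshold (edgeR adjusted p = 0.069). It passed in DESeq2 (-0.50 ± 0.16, adjusted p = 0.031) and in edgeR without Zeocin Col-0 replicate 2 (-0.64 ± 0.18, adjusted p = 0.04). LHY, the partner of CCA1, had 47.3, 43.5, 35.7 and 32.5 CPM in Zeocin Δlinda, against 26.5, 23.9 and 40.3 CPM in mock Δlinda. In Col-0 its Zeocin libraries were at 25.0, 59.7 and 34.0 CPM, around the mock range of 30.2 to 49.3 CPM. Neither LHY fold passed, with intervals of -0.09 to 0.88 in Δlinda and -0.47 to 0.49 in Col-0.

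PRR7 had 87.7, 136, 121 and 147 CPM in Zeocin Δlinda, against 152, 182 and 166 CPM in mock Δlinda, with no overlap but a log2 fold of -0.44 ± 0.18 that did not pass (edgeR adjusted p = 0.26). In Col-0 PRR7 was at 139 to 233 CPM after Zeocin and 144 to 249 CPM in mock, with a log2 fold of -0.13 ± 0.18. GI had 39.4, 73.2, 74.9 and 72.9 CPM in Zeocin Δlinda, against 88.2, 86.1 and 71.7 CPM in mock Δlinda. In Col-0 GI had 69.4, 76.7 and 77.6 CPM after Zeocin, against 103, 103, 70.9 and 96.5 CPM in mock. The groups overlapped, and the log2 folds of -0.33 and -0.32 did not pass (edgeR adjusted p = 0.38 in Δlinda and 0.3 in Col-0). For the remaining genes, RVE8, PRR9, PRR5, TOC1 and ELF4, Zeocin log2 folds lay between -0.28 and 0.18 in Δlinda and between -0.37 and 0.58 in Col-0, and every pair of groups overlapped. ELF4 had the widest intervals, from -0.72 to 1.07 in Δlinda and from -0.28 to 1.44 in Col-0.

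Genotype comparisons ask whether the mutant differs from the wild type in the same condition. None of the 10 clock genes passed in edgeR in any of the 4 conditions, where 0.262% of all genes passed after Zeocin, 0.0206% in mock, 0.0412% after UV-C and 0.232% in normal light. At an unadjusted p of 0.05 edgeR gave 3 clock genes after Zeocin, 1 in mock, 2 after UV-C and 3 in normal light, where 13.2%, 3.61%, 6.95% and 9.01% of all genes tested were under it, in the same order of conditions. DESeq2 called 0 after Zeocin, 1 in mock (RVE1), 0 after UV-C and 1 in normal light (PRR5). Over all genes tested DESeq2 called 193 after Zeocin, 12 in mock, 16 after UV-C and 156 in normal light. Groups did not overlap for 0 clock genes after Zeocin (8.76% of all genes tested), 1 in mock (5.24%), 1 after UV-C (3.44%) and 2 in normal light (5.54%). The medians of the 10 log2 folds were -0.24 after Zeocin, -0.21 in mock, -0.19 after UV-C and -0.13 in normal light, beside medians of 0.00 over all genes tested in each.

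RVE1 in mock seedlings had 16.9, 23.0 and 17.9 CPM in Δlinda, against 29.8, 46.2, 28.5 and 31.9 CPM in Col-0. The groups did not overlap, and the log2 fold was -0.82 ± 0.18 (edgeR adjusted p = 0.2; DESeq2 -0.82 ± 0.19, adjusted p = 0.026). After Zeocin RVE1 was at 13.5 to 17.8 CPM in Δlinda and 11.3 to 19.6 CPM in Col-0, with a log2 fold of -0.02 ± 0.18. These 2 contrasts and the Zeocin contrasts share libraries, so the mock Col-0 values enter both the genotype fold and the Zeocin fold.

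PRR5 in normal light had 22.0, 30.8, 12.1 and 19.1 CPM in Δlinda, against 48.7, 41.2, 35.4 and 46.1 CPM in Col-0. The groups did not overlap, and the log2 fold was -1.03 ± 0.24 (edgeR adjusted p = 0.082). It passed in DESeq2 (-1.02 ± 0.24, adjusted p = 0.0094) and in edgeR without normal light Δlinda replicate 2 (-1.28 ± 0.25, adjusted p = 0.025). GI was lower in Δlinda without overlap in both light conditions, at 33.4 to 40.1 CPM in UV-C Δlinda and 43.6 to 58.5 CPM in UV-C Col-0, and at 92.0 to 118 CPM in normal light Δlinda and 134 to 146 CPM in normal light Col-0. Its log2 folds of -0.46 ± 0.15 after UV-C and -0.41 ± 0.14 in normal light did not pass (edgeR adjusted p = 0.54 and 0.32). LHY in normal light was at 6.65 to 10.5 CPM in Δlinda and 4.68 to 6.76 CPM in Col-0, with a log2 fold of 0.58 ± 0.27 (adjusted p = 0.52).

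**Figure D4:**
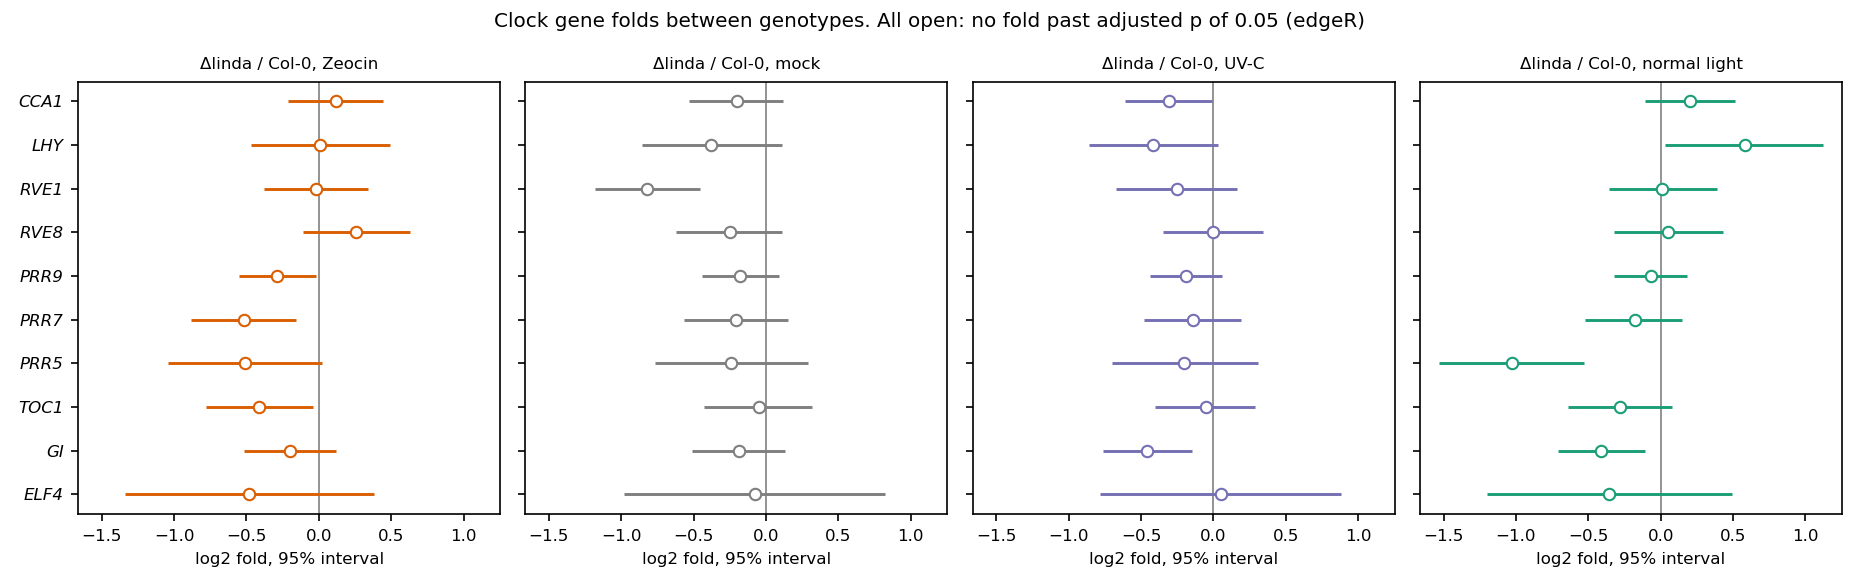
Log2 folds of Δlinda over Col-0 for the 10 clock genes with 95% intervals (edgeR), after Zeocin, in mock, after UV-C and in normal light. All points are open, and the intervals farthest from 0 are those of RVE1 in mock (-1.18 to -0.46) and PRR5 in normal light (-1.53 to -0.53).

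The interaction, the treatment log2 fold in Δlinda minus that in Col-0, passed for none of the 10 genes under either treatment, against 0.0412% of all genes for Zeocin and 0.0360% for UV-C. At an unadjusted p of 0.05 edgeR gave 1 clock gene for Zeocin (3.73% of all genes tested) and 3 for UV-C (7.54%), and DESeq2 called 0 for both. For UV-C these were LHY (-0.99 ± 0.34, edgeR adjusted p = 0.49), CCA1 (-0.51 ± 0.21, adjusted p = 0.58) and PRR5 (0.83 ± 0.35, adjusted p = 0.58). CCA1 and PRR5 passed the UV-C test in Col-0 and not in Δlinda, but this difference between genotypes did not hold up when tested itself.

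Mock seedlings in liquid medium were also compared with seedlings in normal light, which share no treatment and differ in medium, in root marker content and possibly in harvest time. These cannot be told apart. In Δlinda 6 of the 10 clock genes passed and in Col-0 8 of 10 did, against 47.1% (24.9% higher, 22.1% lower) and 55.1% (29.2% higher, 25.9% lower) of all genes tested. Groups did not overlap for 7 clock genes in each genotype, as for 49.1% in Δlinda and 53.3% in Col-0 of all genes tested. This contrast shares its mock libraries with the Zeocin contrast and its normal light libraries with the UV-C contrast. LHY, RVE1, RVE8, CCA1 and TOC1 were higher in mock in both genotypes and PRR7 was lower in both, while GI and PRR5 passed, as lower, in Col-0 and not in Δlinda, a difference that was not tested. LHY rose 3.42-fold in mock Δlinda (log2 fold 1.77 ± 0.25, edgeR adjusted p = 1.4e-06) and 6.63-fold in mock Col-0 (2.73 ± 0.25, adjusted p = 4.5e-10). RVE1, which was lower after UV-C, was higher in mock, by 2.56-fold in Δlinda (adjusted p = 5e-07) and 4.57-fold in Col-0 (adjusted p = 1.7e-11). RVE8 rose 2.23-fold in Δlinda and 2.76-fold in Col-0, and CCA1 rose 1.48-fold and 1.95-fold.

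PRR7 fell in mock by log2 folds of -0.85 ± 0.18 in Δlinda (edgeR adjusted p = 0.00024) and -0.82 ± 0.16 in Col-0 (adjusted p = 8.9e-05). GI had log2 folds of -0.37 ± 0.16 in Δlinda (adjusted p = 0.057) and -0.59 ± 0.14 in Col-0 (adjusted p = 0.00097), and PRR5 of -0.08 ± 0.26 (adjusted p = 0.83) and -0.87 ± 0.24 (adjusted p = 0.003). The GI fold in Δlinda passed without normal light Δlinda replicate 3 (-0.42 ± 0.17, adjusted p = 0.044). TOC1 rose by 0.71 ± 0.19 in Δlinda (adjusted p = 0.0021) and 0.49 ± 0.17 in Col-0 (adjusted p = 0.016), and the Col-0 call was lost without mock Col-0 replicate 2 (adjusted p = 0.052) or replicate 4 (adjusted p = 0.064). ELF4 did not pass in either, but in Col-0 it did without mock Col-0 replicate 1 (-1.04 ± 0.43, adjusted p = 0.043), the library with the conflicting genotype tag. The summed root markers were at 84.5 to 111 CPM in mock Δlinda and 33.4 to 37.8 CPM in normal light Δlinda, and at 80.0 to 109 CPM in mock Col-0 and 30.2 to 39.2 CPM in normal light Col-0. Nearly all of the normal light sum came from SCR. CASP1 was at 16.3 to 26.8 CPM in mock Δlinda and 14.6 to 23.6 CPM in mock Col-0. TIP2;3 was at 11.4 to 25.7 CPM in mock Δlinda and 11.0 to 26.1 CPM in mock Col-0. Both were at most 0.337 CPM in every normal light library. The summed leaf mesophyll markers were at 11785 to 14408 CPM in mock Δlinda and 24889 to 34421 CPM in normal light Δlinda, and at 11359 to 14228 CPM in mock Col-0 and 25472 to 29224 CPM in normal light Col-0. The stomatal lineage sum was 24.5 to 29.3 CPM in mock Δlinda and 39.0 to 45.2 CPM in normal light Δlinda, and 25.3 to 29.3 CPM in mock Col-0 and 37.8 to 41.3 CPM in normal light Col-0. The phloem sum was 116 to 129.6 CPM in mock Δlinda and 191 to 220.4 CPM in normal light Δlinda, and 127 to 160.3 CPM in mock Col-0 and 204 to 270.4 CPM in normal light Col-0. Chloroplast-encoded genes took 0.144% to 0.353% of the counts in mock Δlinda and 0.503% to 1.57% in normal light Δlinda, and 0.0938% to 0.164% in mock Col-0 and 0.705% to 0.893% in normal light Col-0. The ribosomal and structural RNA genes AT3G41768 and AT3G06365 together took 0.438% to 1.09% in mock Δlinda and 0.680% to 1.13% in normal light Δlinda, and 0.319% to 0.498% in mock Col-0 and 0.856% to 1.62% in normal light Col-0. Their part in these folds was not tested.

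A list of 34 other clock genes was read beside the core, of which 28 were tested. Decimal marks were unclear for RVE7, BOA, COR27, COR28 and ELF4-L1, and the RVE7-like gene had too few counts. After UV-C, 3 of 28 were higher and 11 lower in Δlinda (50% called, against 69.9% of all genes tested), and 7 were higher and 14 lower in Col-0 (75.0%, against 70.3%). Their median log2 fold was -0.27 in Δlinda and -0.30 in Col-0, beside 0.01 and 0.00 over all genes tested. The 5 with the largest folds were the same in both genotypes. CHE, a TCP factor that represses CCA1, fell to 18.0 ± 5.05 CPM in UV-C Δlinda, against 65.5 ± 5.74 CPM in normal light Δlinda (SD, n = 4 each), and to 17.4 ± 3.21 CPM in UV-C Col-0, against 79.5 ± 5.56 CPM in normal light Col-0 (edgeR adjusted p = 6.6e-11 and 2.2e-12). JMJD5, a demethylase-family gene of the clock, fell by log2 folds of -1.46 in Δlinda and -1.69 in Col-0. ELF4-L2, a relative of ELF4, fell by -1.33 and -2.04, ELF3, the scaffold of the evening complex, by -1.24 and -1.35, and PRR3, a relative of TOC1, by -1.11 and -1.48.

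After Zeocin, 0 of the 28 passed in Δlinda, where 4 had an unadjusted p under 0.05 in edgeR (12.1% of all genes tested did) and DESeq2 called 0. In Col-0, 2 were higher and 1 lower (10.7% called, against 5.43% of all genes tested). JMJD5 rose to 4.27 ± 0.658 CPM (SD, n = 3) in Zeocin Col-0, against 1.50 ± 0.0907 CPM (SD, n = 4) in mock Col-0 (log2 fold 1.51 ± 0.28, edgeR adjusted p = 0.0005), the opposite direction to its fall after UV-C. CKB4, a subunit of casein kinase 2, which phosphorylates CCA1, rose by 0.47 ± 0.12 (adjusted p = 0.012), and ELF4-L3 fell by a log2 fold of -0.96 ± 0.29 (adjusted p = 0.047). Counts were low for JMJD5, at 7 to 80 per library over all 30 libraries, and for ELF4-L3, at 9 to 71. In mock against normal light, 8 of 28 were higher and 7 lower in Δlinda (53.6% called, against 47.1% of all genes tested), and 10 higher and 10 lower in Col-0 (71.4%, against 55.1%). The largest folds there belonged to RVE2, a MYB-like relative of CCA1, at log2 folds of 2.43 ± 0.36 in Δlinda and 3.25 ± 0.34 in Col-0. RVE2 had 5 to 345 counts per library over all 30 libraries. Of the other 4 largest in each genotype, PRR3 had -1.24 and -1.80 and JMJD5 -1.17 and -1.52, LUX rose by 1.16 and CHE fell by a log2 fold of -1.13 in Δlinda, and RVE3 rose by 1.84 and FKF1 fell by a log2 fold of -1.68 in Col-0. Between genotypes, edgeR called 0 of the 28 in each of the 4 conditions, with 3 after Zeocin (13.2% of all genes tested), 5 in mock (3.61%), 4 after UV-C (6.95%) and 2 in normal light (9.01%) at an unadjusted p of 0.05. DESeq2 called LNK4 in normal light, where it called 156 of all genes tested. Neither interaction had a call by either tool, with 1 gene for Zeocin (3.73% of all genes tested) and 4 for UV-C (7.54%) at an unadjusted p of 0.05 in edgeR.

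Of 10 clock output genes, 7 were tested, since the decimal marks of CO, CDF5 and FT were unclear. After UV-C, 1 was higher and 5 lower in each genotype (85.7% called, against 69.9% of all genes tested in Δlinda and 70.3% in Col-0). CDF2, a DOF repressor of CO, was the one that rose, to 18.5 ± 2.72 CPM in UV-C Δlinda, against 4.42 ± 1.02 CPM in normal light Δlinda, and to 25.5 ± 2.09 CPM in UV-C Col-0, against 5.82 ± 0.625 CPM in normal light Col-0 (SD, n = 4 each; edgeR adjusted p = 3.7e-09 and 8e-10). Its relatives CDF3 and CDF1 fell, with log2 folds of -1.81 and -1.49 in Δlinda and -1.56 and -1.07 in Col-0. COL2, a CO-like gene, fell by log2 folds of -1.56 and -0.96, and the RNA-binding protein genes GRP7, by -0.89 and -1.76, and GRP8, by -0.61 and -1.21. After Zeocin, edgeR called 0 of the 7 in Δlinda, where 1 had an unadjusted p under 0.05 (12.1% of all genes tested did) and DESeq2 called 0. In Col-0 2 were lower, CDF1 at a log2 fold of -0.86 ± 0.19 (adjusted p = 0.0038) and COL2 at -0.71 ± 0.17 (adjusted p = 0.0067), which is 28.6% called, against 5.43% of all genes tested.

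In mock against normal light, 1 output gene was higher and 3 lower in Δlinda (57.1% called, against 47.1% of all genes tested), and 2 were higher and 4 lower in Col-0 (85.7%, against 55.1%). CDF2 rose in both, by 1.62 ± 0.24 in Δlinda and 1.24 ± 0.22 in Col-0, and COL1 rose in Col-0 by 1.18 ± 0.23 (edgeR adjusted p = 0.0001). CDF1 and CDF3 fell in both genotypes and COL2 in Δlinda (-0.63 ± 0.17), while GRP7 (-1.26 ± 0.17) and GRP8 (-0.77 ± 0.14) fell in Col-0. Between genotypes and in both interactions edgeR called 0 of the 7, with 1 to 4 per contrast at an unadjusted p of 0.05 (3.61% to 13.2% of all genes tested). DESeq2 called GRP7 between genotypes in normal light, where it called 156 of all genes tested.

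**Figure D5:**
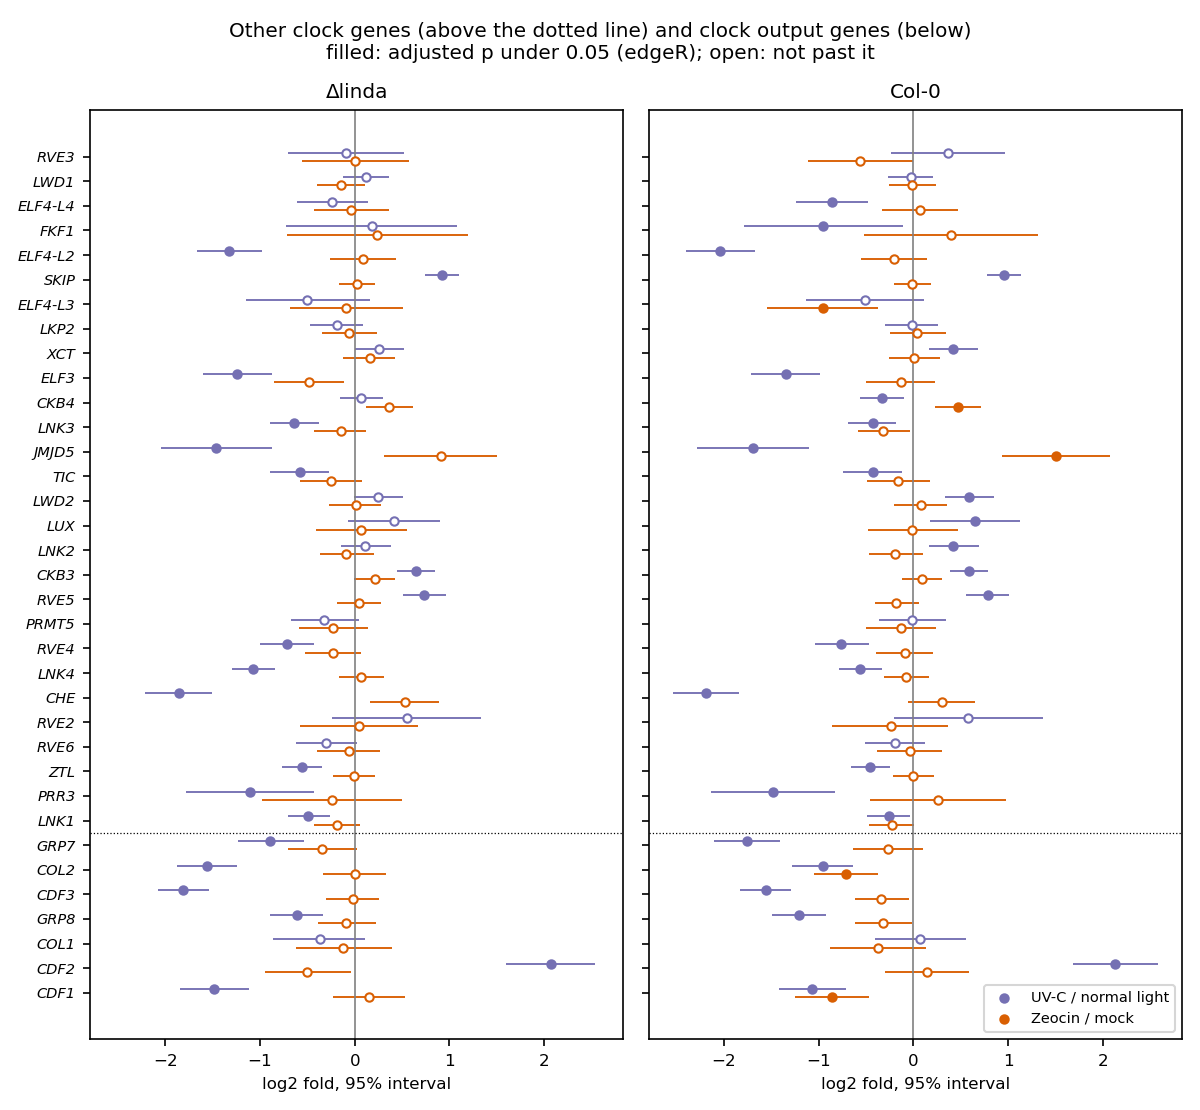
Log2 folds with 95% intervals (edgeR) of the 28 other clock genes and 7 clock output genes tested, for UV-C over normal light and Zeocin over mock, in Δlinda (left) and Col-0 (right), filled where the adjusted p was under 0.05. Among the other clock genes CHE, ELF4-L2 and JMJD5 lie farthest below 0 after UV-C in both genotypes, and among the output genes CDF2 lies above 0 in both.

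Across the 30 libraries, which share groups and library makeup, log2 levels of LHY and RVE8 had a Pearson r of 0.91, CCA1 and RVE8 of 0.81, and PRR9 and GI of 0.86, while LHY had -0.82 with PRR7 and -0.81 with GI. Outside the 10, the tested gene most like CCA1 was LNK2 (AT3G54500), a coactivator that binds RVE8, with r of 0.81 over all libraries and 0.92 over the 16 UV-C and normal light libraries. The gene most like PRR5 was FKF1, a blue-light F-box gene, at 0.77 over all libraries, and ZTL, its relative, at 0.90 over the 14 Zeocin and mock libraries. ELF3 was the second most like PRR9 over those 14, at 0.94. GI was closest to the chloroplast protease gene FTSH11 over all libraries and over the 14, at 0.96 in both, and to the starch synthase gene SS4 over the 16, at 0.99. CCA1 was closest to ABF3 over the 14, at 0.87, and PRR5 to AT1G70885 over the 16, at 0.81, both outside the clock lists. Over all libraries, the closest gene lay outside the clock lists for every member except CCA1 and PRR5. LHY and RVE1 had 0.96 with AT4G20860 and with AT4G33150, and ELF4 had its closest gene, AT5G42470, at 0.72. RVE8 was closest to AT5G01250 (0.93), PRR9 to EX1 (0.89), PRR7 to NADK2 (0.94) and TOC1 to ERS1 (0.91). These correlations describe the libraries and carry no test.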

How the data were processed

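RNA came from the Quick-RNA Plant kit, and libraries from random fragmentation with adapter ligation and no strand setting named, per the labels' protocols. The submitters' processing notes list Salmon 0.14.1.2, FastQC 0.72 and Trimmomatic 0.38.0; transcript set and build are not given in the sources used here.

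Values in the deposited file are unnormalised estimated counts for each gene, in which estimates that were not whole had lost their decimal mark. This was read from the values. The mark was restored by the most likely placement of 0 to 3 decimals per gene over all 30 libraries, assuming 1 level per group. Decimals went to 152450 of 723692 entries above 0 (21.07%). A gene was kept only where the chosen placement was at least 20 times likelier than others that differed by over 3 counts, which left out 7084 genes and kept 61491. Since the placement uses the groups, it can draw replicates together. All 10 clock genes were clear with the groups in the placement. Without the groups LHY and PRR9 were not clear, though none of their entries was read differently. CCA1, LHY and RVE1 had 7 restored entries each, RVE8 14 and PRR9 24, and PRR7, PRR5, TOC1, GI and ELF4 none. In a simulation built from the restored counts with 1 spread for all genes, 16 of 19944 genes kept (0.08%) held a wrong entry. These are genes with a mean count of 10 or more. The simulation left 6.57% of such genes unclear, against 12.78% in the data, so the simulated table was easier to read. In the data, 1158 genes that were clear with and without the groups were read differently without them.

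Restored counts were rounded and fitted with edgeR 4.0.16 in R 4.3.3: filterByExpr (count 10, total 15), TMM, all 30 libraries with 1 coefficient per group, robust quasi-likelihood test, Benjamini-Hochberg adjustment within each of 12 comparisons, threshold 0.05. On simulated counts for 21189 genes, 76 of 99 genes changed 2-fold and 93 of 93 changed 4-fold were recovered, with 12 false calls. Standard errors are from the same fit. DESeq2 1.42.0 was an alternative. No pair of replicates agreed within sampling noise.

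All 10 core genes are named; of the other lists, those past the threshold with the 5 largest absolute log2 folds per comparison; of likeness, the 2 tested genes with the highest Pearson r on log2(CPM + 1). The members and lists were chosen with earlier results of these data known. Harvest time, medium and light are as the labels give them.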

Additional observations from a re-analysis of the deposited data

Results flagged for a closer look

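Of 60 groups of 4 libraries tested over the 10 clock genes, 7 had a library set apart from the other 3 by a gap large for the group's own range (Dixon's test at the 95% level). Chance gives about 1 in 20 for independent tests, but these share libraries across genes. Such a gap can be small in CPM, as for CCA1 in Zeocin Δlinda, where all libraries lay at 80.1 to 88.5 CPM. CCA1 was flagged for Zeocin Δlinda replicate 1 at 80.1 CPM, UV-C Δlinda replicate 4 at 104 CPM and normal light Δlinda replicate 2 at 48.3 CPM. LHY, at 65.0 CPM, stood apart in the same UV-C Δlinda replicate 4. GI stood apart in Zeocin Δlinda replicate 1 at 39.4 CPM, the library that was also lowest of its group for CCA1. PRR9 in normal light Col-0 replicate 1, at 72.7 CPM, and TOC1 in mock Col-0 replicate 3, at 24.0 CPM, were below the rest of their groups.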

How the results depend on the processing

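Leaving out 1 library at a time kept direction and call for 992 of 1050 member folds, with 2 calls lost, 4 gained and 52 reversals, and the other alternatives kept 948 of 960, with 6 calls gained and 6 reversals. Every reversed fold was uncalled, and the cause was not tested. Genes called for Zeocin in Col-0 numbered 559 with the compared groups alone, against 1055, and the clock genes called were 2 in DESeq2, against 1. Between genotypes in mock (4 genes called), the count was 149 with decimals placed without the groups, 13 with unclear genes kept, 2 with the compared groups alone and 12 in DESeq2. After Zeocin (51) it was 264 without the groups in the placement, 33 with no filter, 5 with the compared groups alone and 193 in DESeq2. In normal light (45) it was 220, 78 with unclear genes kept, 20 with the replicate block, 15 with the compared groups alone and 156 in DESeq2. After UV-C (8) it was 291, 32 with unclear genes kept and 16 in DESeq2. The Zeocin interaction (8) had 134 and 23, and the UV-C interaction (7) 358, 41 and 42 in DESeq2. Clock genes called between genotypes, 0 in the report, were 1 in mock (RVE1, log2 fold -0.83, adjusted p = 0.016 with that placement) and 1 in normal light (PRR5, -1.01, adjusted p = 0.028), under that placement and in DESeq2. That placement scaled the members' CPM to 0.440 to 0.460 of the reported level, and DESeq2 size factors to 0.970 to 1.024. GI in mock against normal light passed in Δlinda with unclear genes kept (-0.39, adjusted p = 0.049).

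Leaving out 1 library moved genes called for Zeocin in Col-0 between 644, when Zeocin Col-0 replicate 2 was dropped, and 1467, when replicate 1 was, and clock genes called between 1 and 2. Dropping replicate 3 gave 695. The genotype count after Zeocin ran between 4 and 784. It was 4 without Zeocin Col-0 replicate 3 and also without Zeocin Δlinda replicate 3, 7 without Zeocin Δlinda replicate 1, and 784 without Zeocin Col-0 replicate 1. The genotype count in normal light ran between 8 (without normal light Δlinda replicate 4) and 103 (without normal light Δlinda replicate 1), with 0 to 1 clock genes. The UV-C interaction ran between 5 and 17 (without UV-C Δlinda replicate 4).

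Uncalled member folds that crossed 0 had these log2 ranges when 1 library was left out. For Zeocin in Col-0, LHY ran between -0.41 and 0.25, PRR7 between -0.38 and 0.02, PRR5 between -0.18 and 0.17 and TOC1 between -0.15 and 0.28, and ELF4 in Δlinda between -0.13 and 0.40. For UV-C in Δlinda, CCA1 ran between -0.00 and 0.27 and PRR5 between -0.26 and 0.19, and for mock against normal light in Δlinda PRR5 ran between -0.28 and 0.19. Between genotypes in mock, TOC1 ran between -0.22 and 0.03 and ELF4 between -0.38 and 0.29. After Zeocin, CCA1 ran between -0.02 and 0.27, LHY between -0.24 and 0.43 and RVE1 between -0.23 and 0.14. In normal light RVE1 ran between -0.04 and 0.08 and RVE8 between -0.18 and 0.27. After UV-C, RVE8 ran between -0.05 and 0.07, TOC1 between -0.13 and 0.02 and ELF4 between -0.11 and 0.22. In the interactions, GI ran between -0.10 and 0.17 for Zeocin, and RVE8 between -0.27 and 0.18, PRR7 between -0.08 and 0.13 and GI between -0.11 and 0.04 for UV-C. Elsewhere LHY for Zeocin in Col-0 was -0.00 with the compared groups alone, and RVE8 between genotypes after UV-C was 0.01 with unclear genes kept, 0.00 with no filter and 0.00 with the compared groups alone.

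Replicate numbers were not taken to pair the samples, since no comparison had every same-numbered pair correlated over 0.1 (lowest -0.49, highest 0.30). Among the normal light libraries, every UV-C Col-0 library correlated best with that of its own number (4 of 4), and 3 of 4 UV-C Δlinda libraries did. With the replicate block, 954 genes were called for Zeocin in Col-0 and no clock gene changed its call. ELF4 between genotypes in mock was 0.00 and LHY after Zeocin -0.01 in that fit. Depth limits ELF4 most, at 11 to 70 counts per library.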
